A study of Homo sapiens with 6 samples.

Results

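The EGF family ligands and the ERBB receptors were examined in 2 bile duct carcinoma lines given regorafenib. The members were taken by gene symbol, with earlier results of these data known. They were 7 ligands (EGF, TGFA, HBEGF, AREG, EREG, BTC and EPGN) and 3 receptors (EGFR, ERBB2 and ERBB3), 10 genes in all. A member was measured by the probe sets annotated to that gene and no other, and 8 of the 10 had at least 1, among 19775 genes so measured. These 8 had 29 probe sets. AREG and EPGN had no such probe set in the annotation used and were not analysed here.

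HuccT1 and KKU-100 are established lines of human cholangiocarcinoma, a cancer of the bile duct epithelium. For each line there were 3 expression arrays, of cells given solvent, regorafenib at 1 µM (low dose) and regorafenib at 10 µM (high dose), so each condition rested on 1 array and a single comparison within a line had no replicate check. Regorafenib is an oral inhibitor of several receptor tyrosine kinases and of RAF kinases. These doses are those of the sample labels, and the study's own text gives lower ones and a treatment of 6 h. The labels also describe all cells as stably transduced and selected with puromycin, solvent controls included, and they name no construct.

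EGF family ligands are made as precursors that span the cell membrane, from which metalloproteases of the ADAM family release the soluble growth factor. A released ligand binds EGFR, and some ligands also bind ERBB4; the bound receptor pairs with itself or with another ERBB receptor and is phosphorylated. ERBB2 has no known ligand of its own and serves as a partner, while ERBB3 binds neuregulins and has little kinase activity. Signalling through RAS and ERK follows, and genes of several ligands are themselves induced by it, which makes the family a self-feeding loop in many epithelial tumours.

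Signals are the linear array signals as deposited. A gene was given by its brightest probe set, and it was counted in a line where its mean log2 signal over that line's 3 arrays reached the median of all probe sets. Of the 8 measured members, 7 reached this level in HuccT1 (EGF was below it) and all 8 in KKU-100. The arrays had like scales, with median signals between 28.8 and 29.3. Of 9 measured epithelial and biliary markers, all 9 reached that level in HuccT1 and 6 in KKU-100, where KRT19, EPCAM and CLDN4 were below it. KRT19 and EPCAM, defining markers of bile duct epithelium, had signals in KKU-100 of only 8.62 to 11.1.

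The ligands TGFA, HBEGF and EREG stood lower than solvent under either dose in both lines. They were the 3 members lower by more than 1.5-fold in each of the 4 comparisons. Over all genes past the level filter, the low dose left 3.32% lower by that measure in HuccT1 and 7.32% in KKU-100. The high dose left 6.44% and 4.86% lower. No member past the filter was higher by 1.5-fold in HuccT1, where 3.68% of genes were higher with the low dose and 8.23% with the high one. In KKU-100 ERBB3 was the only member higher by 1.5-fold, with either dose, against 9.75% and 9.44% of genes. With the median over a gene's probe sets in place of the brightest, several of these no longer passed 1.5-fold. HBEGF was then -0.61 and -0.42 in HuccT1, lost with the high dose, and -1.35 and -0.99 in KKU-100. TGFA in KKU-100 was lost under either dose (-0.21 and -0.09), as was ERBB3 there (0.47 and 0.29), and EREG there was lost with the high dose (-0.02). The comparisons of a line share its solvent array.

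**Figure D1:**
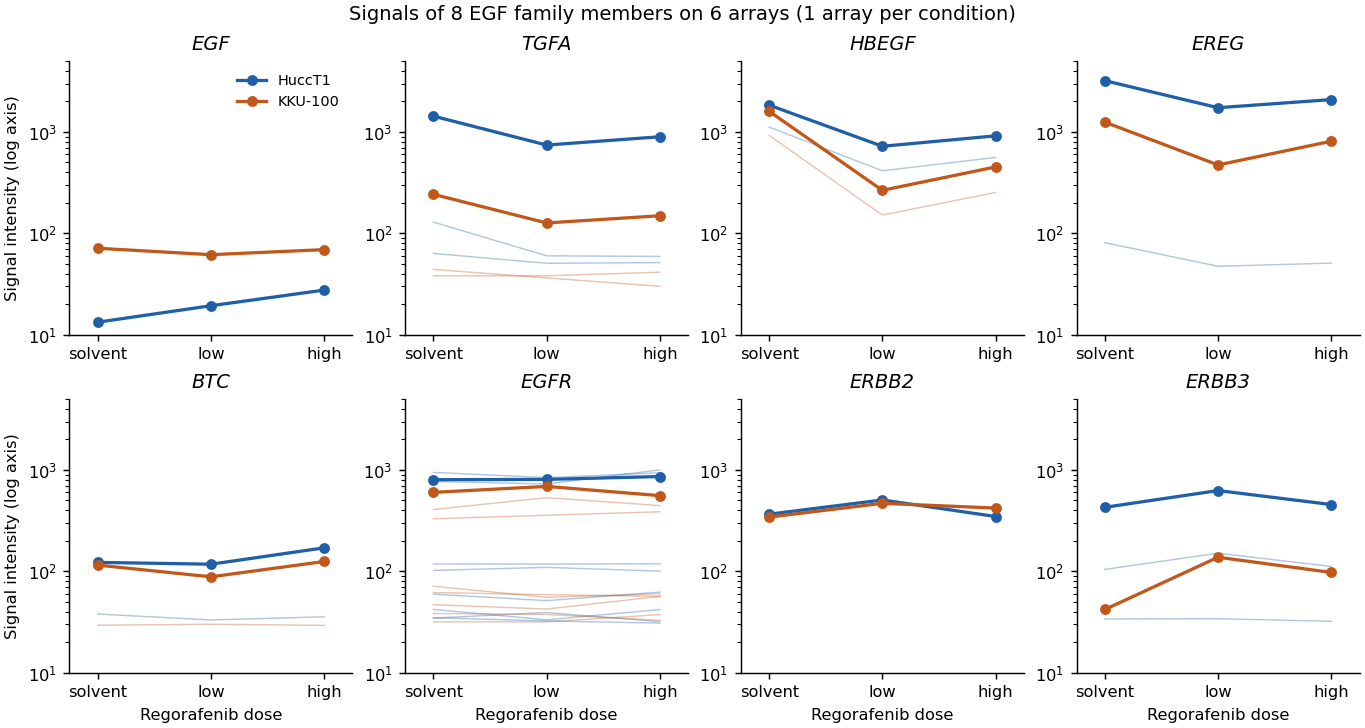
Signal of each of the 8 measured members in each array, on a log axis, with 1 panel per gene and the solvent, low dose (1 µM) and high dose (10 µM) arrays along the x axis; each point is 1 array of the brightest probe set, and thin lines are the gene's other probe sets past the level filter. TGFA, HBEGF and EREG lie lower at both doses in both lines, and ERBB3 rises in KKU-100 from 42.0 to 138 and 97.5.

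The promoters of the 3 ligands that were lower are shown because each was lower under either dose in both lines. Each is the 250 bases before the RefSeq start site in GRCh38.p14, read 5′ to 3′ on the strand of the gene. Capitals mark matches to the motifs searched.
HBEGF, chr5:140346604-140346853, minus strand: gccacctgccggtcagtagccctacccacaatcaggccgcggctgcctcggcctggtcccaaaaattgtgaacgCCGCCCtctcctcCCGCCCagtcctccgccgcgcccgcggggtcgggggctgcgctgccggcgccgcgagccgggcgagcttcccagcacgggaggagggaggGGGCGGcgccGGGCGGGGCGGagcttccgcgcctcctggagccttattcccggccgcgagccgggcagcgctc
EREG, chr4:74364895-74365144, plus strand: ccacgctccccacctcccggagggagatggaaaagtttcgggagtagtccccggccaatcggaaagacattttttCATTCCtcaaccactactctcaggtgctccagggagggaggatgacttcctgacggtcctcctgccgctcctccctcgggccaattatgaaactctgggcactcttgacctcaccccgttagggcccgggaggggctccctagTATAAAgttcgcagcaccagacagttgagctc
TGFA, first of 2 start sites, chr2:70553827-70554076, minus strand: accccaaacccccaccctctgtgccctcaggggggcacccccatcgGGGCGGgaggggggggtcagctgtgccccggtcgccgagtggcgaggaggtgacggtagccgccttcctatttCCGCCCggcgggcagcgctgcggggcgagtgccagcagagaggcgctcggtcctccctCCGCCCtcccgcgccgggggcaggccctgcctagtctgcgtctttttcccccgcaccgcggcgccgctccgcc

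The search covered 7 motifs on both strands. AP-1 was searched as TGANTCA and the cyclic AMP response element, CRE, as TGACGTCA. The TEAD motif was spelled GGAATG and the ETS motif CGGAAGT. The TATA box was taken as TATAAA, the GC box as GGGCGG, and the CArG box, which serum response factor binds, by its usual form. HBEGF held 5 GC boxes, of which the last pair share a base, and this TGFA window held 3. EREG held none, and had instead a TATA match from 32 to 27 bases before the start and a TEAD match on the opposite strand, from 175 to 170 bases before it. No AP-1, CRE, ETS or CArG match lay in these 3 windows. Among 35116 RefSeq windows of this length, 42.6% held a GC box, 10.7% the TATA motif and 11.9% the TEAD motif, so the matches are common ones. AP-1 was in 6.57% of windows, CRE in 1.65%, ETS in 5.69% and the CArG box in 1.16%. In the RefSeq gene order on chromosome 4, EPGN, EREG, AREG and BTC are neighbours, so a ligand that was lower (EREG) and one that stayed within 1.5-fold (BTC) lie in 1 gene cluster.

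HBEGF, the heparin-binding ligand that also serves as the diphtheria toxin receptor, had the largest change of the ligands past the level filter by the brightest probe set, though not in HuccT1 by the median over probe sets. Its signal (probe set 203821_at) in HuccT1 was 1839 with solvent, 722 with the low dose and 916 with the high dose. The KKU-100 signals were 1599 with solvent, 266 with the low and 452 with the high dose. The solvent arrays of the lines were close, and all 4 treated arrays lay below both of them. The fall was 2.55-fold and 2.01-fold in HuccT1, or log2 changes of -1.35 and -1.01. In KKU-100 HBEGF fell 6.02-fold and 3.54-fold, or -2.59 and -1.82. Of 12694 genes past the filter in KKU-100, 22 had a lower log2 change than HBEGF with the low dose and 24 with the high one. The counts in HuccT1 were 26 and 241 of 12789.

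A second bright probe set for HBEGF (38037_at) had signals of 1118, 414 and 561 in HuccT1, and in KKU-100 its log2 changes were -2.61 and -1.87. The remaining pair of HBEGF probe sets were below the level filter in both lines and did not fall by 1.5-fold on any array. The difference between the lines in the HBEGF response, KKU-100 minus HuccT1 with both doses taken as repeats of treatment, was -1.03 (SE 0.51, adjusted p = 0.671 with limma). A difference in response was thus not shown.

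EREG, epiregulin, binds EGFR and ERBB4. Its signal (205767_at) in HuccT1 was 3206 with solvent, 1734 with the low dose and 2085 with the high dose. Its KKU-100 signals were 1249, 473 and 810 in the same order. Both treated arrays of each line lay below that line's solvent array, by -0.89 and -0.62 (log2) in HuccT1, and by -1.40 and -0.62 in KKU-100. The high dose thus left EREG just past the cutoff of 1.5-fold. A dimmer probe set (1569583_at) gave -0.77 and -0.67 in HuccT1. The same probe set was below the level filter in KKU-100, with values of -0.23 and 0.58.

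TGFA, transforming growth factor alpha, is an EGFR ligand made by many epithelial cancers. Its signal (205016_at) in HuccT1 was 1432 with solvent, 743 with the low dose and 897 with the high dose. Its KKU-100 signals were 243, 127 and 149. The log2 changes were nearly the same in the lines, -0.95 and -0.68 in HuccT1 against -0.94 and -0.70 in KKU-100. The probe sets of TGFA differed among themselves. In HuccT1 205015_s_at fell with values of -1.10 and -1.12, whereas in KKU-100, at signals of 38.1, 38.2 and 41.4, its changes were 0.00 and 0.12. The third, 211258_s_at, stayed within 1.5-fold throughout, its changes being -0.32 and -0.30 in HuccT1, and -0.28 and -0.55 for KKU-100.

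BTC, betacellulin, a ligand of EGFR and ERBB4, stayed within 1.5-fold. Its signal in HuccT1 was 123 with solvent, 117 with the low dose and 170.5 with the high dose (log2 changes of -0.06 and 0.48). For KKU-100 the BTC signals were 115, 88.3 and 125 (-0.38 and 0.12). EGF itself was low in HuccT1, below the level filter, with signals of 13.3, 19.3 and 27.6. In KKU-100 the EGF signal was 71.3, 61.6 and 69.1, with log2 changes of -0.21 and -0.04. The median log2 change over the ligands past the filter was -0.92 and -0.65 for HuccT1, with 0.02 for all genes under either dose. For KKU-100 it was -0.94 and -0.62, with 0.06 for all genes.

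**Figure D2:**
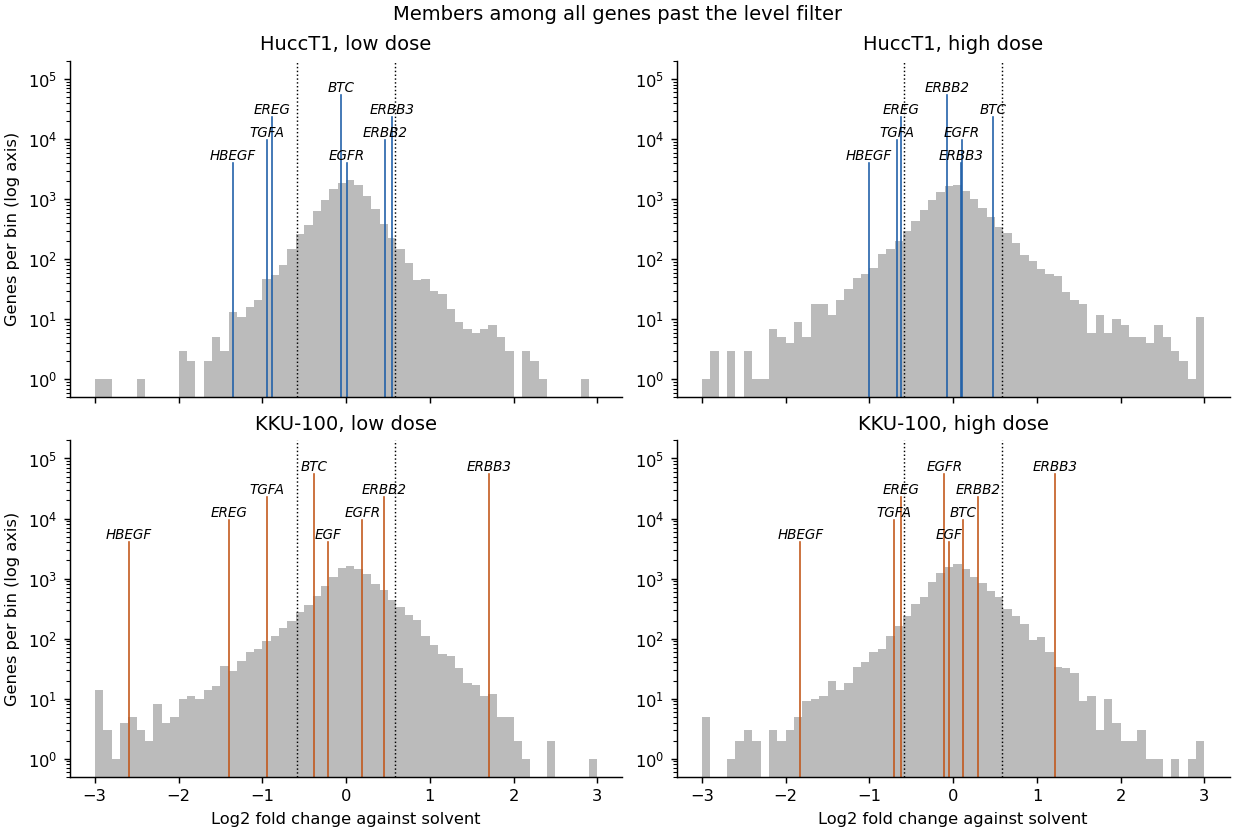
Log2 change against solvent at each dose in each line: grey shows the distribution over all genes past the level filter of the line, on a log count axis, named vertical lines mark the members past it (their heights carry no value), dotted lines stand at 1.5-fold, and values beyond 3 either way are drawn at the edge. Of the members HBEGF lies farthest to the lower side in all 4 comparisons, with TGFA and EREG also past 1.5-fold, and ERBB3 lies to the higher side in KKU-100.

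Among the receptors, EGFR, the receptor that the 3 ligands share, stayed within 1.5-fold. Its signal (201983_s_at) in HuccT1 was 801 with solvent, 806 with the low dose and 861 with the high dose. The KKU-100 signals of EGFR were 601, 688 and 558. Every EGFR probe set past the level filter, of 9 in all, stayed within 1.5-fold in both lines, between -0.36 and 0.39. ERBB2 signals were 366, 505 and 347 in HuccT1, while those of KKU-100 were 343, 469 and 420. In both lines ERBB2 was highest with the low dose, with log2 changes of 0.47 and 0.45, which did not reach 1.5-fold.

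ERBB3, the receptor of the neuregulins and a strong activator of PI3 kinase, was the member with the most unlike values in the lines. In HuccT1 its signal (226213_at) was 428 with solvent, 626 with the low dose and 455 with the high one, log2 changes of 0.55 and 0.09. The KKU-100 signals were 42.0 with solvent, 138 with the low dose and 97.5 with the high one. This was 3.28-fold and 2.32-fold higher than solvent, or log2 changes of 1.71 and 1.21. Even so, both treated KKU-100 arrays stayed below all 3 HuccT1 arrays. Another ERBB3 probe set (202454_s_at) moved alike, by 0.53 and 0.10 for HuccT1 and, below the level filter, by 1.37 and 1.26 for KKU-100. The other 3 probe sets of ERBB3 stayed within 1.5-fold. The difference in the ERBB3 response, KKU-100 minus HuccT1, was 1.14 (SE 0.45, adjusted p = 0.609 with limma).

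Of the 9 measured epithelial markers in KKU-100, 3 were higher than solvent under either dose, 2 were lower under either dose and 4 went opposite ways. CDH1, the adhesion gene E-cadherin, was the only one higher by 1.5-fold under either dose, as ERBB3 was. Its KKU-100 signal was 22.9 with solvent, 76.7 with the low dose and 79.9 with the high dose. The solvent signal lay below that array's median of 29.25, so CDH1 reached the level filter only through its treated arrays. In HuccT1 CDH1 was 2628, 3238 and 2714. CLDN4, below the level filter in KKU-100, went the other way there, from 23.3 with solvent to 11.9 and 14.3. In HuccT1 3 of the 9 were higher under either dose, 3 were lower and 3 went opposite ways. SOX9 was the only one there past 1.5-fold under either dose, lower, from 1408 with solvent to 687 and 644. In KKU-100 SOX9 was 921, 1059 and 546. The summed signal of the 9 epithelial markers ranged from 18509 to 24513 in KKU-100 and from 41183 to 47805 in HuccT1. Their part in the ERBB3 result was not tested. Summed stromal markers ranged from 278 to 354 in HuccT1 and from 797 to 1074 in KKU-100, where COL3A1 gave 538 to 779 of it. Endothelial markers summed to between 99.5 and 127, immune markers to between 178 and 224, and hepatocyte markers to between 103 and 117 over both lines.

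**Figure D3:**
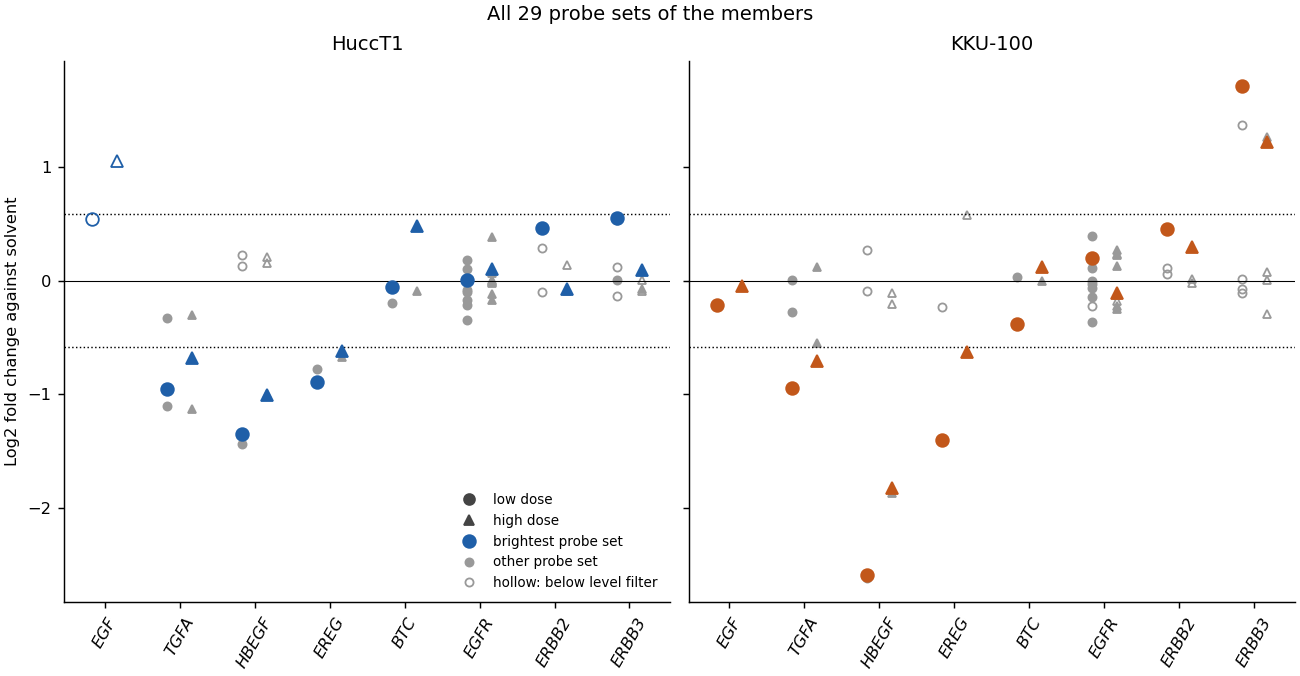
Log2 change against solvent for all 29 probe sets of the members, by gene and line, at the low dose (circles) and the high dose (triangles); large coloured symbols mark each gene's brightest probe set, hollow symbols lie below the level filter of the line, and dotted lines stand at 1.5-fold. For HBEGF 2 probe sets fall together in each line and the 2 dim ones lie near 0, while the EGFR probe sets all lie within 1.5-fold.

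To ask whether a dose changed a member on average over the lines, limma was fitted over the 6 arrays with cell line as a block. The lines thus serve as the replicates of a dose. Nothing says that the arrays came from separate cultures, and the p-values measure only the spread between these arrays. No member passed under either dose after adjustment over 12833 genes, and neither did any other gene (0.0% called). The smallest adjusted p over all genes was 0.299 for the low dose and 0.0793 for the high dose. Before adjustment, 5 of 8 members had p under 0.05 for the low dose: TGFA, HBEGF and EREG were lower, and ERBB2 and ERBB3 higher. Of all genes, 650 (5.07%) were lower and 788 (6.14%) higher by this measure. For the high dose TGFA, HBEGF and EREG were lower and no member was higher, against 629 genes lower (4.9%) and 1285 higher (10.0%). The t-test on the same values, paired over the 2 lines, called no member after adjustment. Before adjustment 2 members had p under 0.05 for each dose, TGFA with ERBB2 (low) and TGFA with EREG (high). The share of all genes by that t-test was not worked out, so these counts are a description.

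The fitted change of HBEGF over both lines was -1.97 for the low dose (SE 0.30, adjusted p = 0.299 with limma) and -1.41 for the high dose (adjusted p = 0.164). EREG had -1.14 (SE 0.16, adjusted p = 0.299) and -0.62 (adjusted p = 0.206). TGFA had -0.94 (SE 0.14, adjusted p = 0.299) and -0.69 (adjusted p = 0.162). Each of these ligands was lower in 4 of 4 treated arrays, which restates the 1.5-fold result that singled them out and adds no support. For ERBB3 the fit gave 1.13 (SE 0.32, adjusted p = 0.401) and 0.65 (adjusted p = 0.414), and ERBB2 had 0.46 with the low dose (adjusted p = 0.425). ERBB3 was higher in 4 of 4 treated arrays, though in HuccT1 within 1.5-fold. The share of all genes that went the same way in 4 of 4 arrays was not worked out. Without the KKU-100 solvent array its fitted changes were 0.56 and 0.08, and without the HuccT1 solvent array 1.70 and 1.22. A test for a difference in response between the lines called no member and no gene (0.0% of 12833). Before adjustment 382 genes (2.98%) had a lower response in KKU-100, of the members EGF, below the level filter in HuccT1, among them, and 668 (5.21%) a higher one. Leaving out the HuccT1 solvent array changed the calls to 4 members for the low dose (HBEGF, EREG, TGFA and ERBB3) and 2 for the high dose (HBEGF and ERBB3), among 1280 (9.97%) and 629 (4.9%) of all genes. Without the KKU-100 solvent array 15 (0.117%) and 566 (4.41%) of all genes were called, and 0 members. In the first case the change from solvent rested on the KKU-100 solvent array, and in the second on that of HuccT1.

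The basal levels, those of the solvent arrays, differed between the lines for several members. ERBB3 was 10.2-fold higher in HuccT1 (428 against 42.0) and TGFA 5.90-fold higher (1432 against 243). The dimmer TGFA probe sets gave smaller log2 differences between the solvent arrays, -1.76 (205015_s_at) and -0.53 (211258_s_at), the last within 1.5-fold. EREG was 2.57-fold higher in HuccT1 (3206 against 1249). The EGF signal was 71.3 in KKU-100 and, below the level filter, 13.3 in HuccT1, so no fold is given. Between the solvent arrays, 23.8% of 12833 genes were lower in KKU-100 by 1.5-fold and 22.7% higher. The solvent levels of HBEGF, BTC, EGFR and ERBB2 lay within 1.5-fold of each other in the lines, at 1.15-, 1.06-, 1.33- and 1.07-fold. For EGFR this held only for the brightest probe set and some dimmer ones. The next brightest pair, 224999_at and 201984_s_at, both gave a log2 difference of -1.22 between the solvent arrays, lower in KKU-100.

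Over the 3 treatments, limma called 5 of the 7 members past the level filter in both lines as different between the lines. Of all genes, 26.3% were called lower and 27.9% higher in KKU-100. The 3 treatments are not replicates of a line, and any response particular to a line enters the residual. The p-values therefore do not measure the spread between cultures of a line. TGFA was lower in KKU-100 by a log2 difference of -2.57 (SE 0.12, adjusted p = 5.83e-05). ERBB3 was lower by -2.59 (SE 0.26, adjusted p = 7.67e-04) and EREG by -1.53 (SE 0.13, adjusted p = 4.58e-04). EGF entered this fit only through its KKU-100 signals, and its difference of 1.81 is therefore a description. HBEGF was lower by -0.89 (adjusted p = 0.0266), although the solvent arrays differed by only -0.20 and the treated ones by -1.44 and -1.02. EGFR was lower by -0.42 (adjusted p = 0.0335), and by -0.98 when probe sets with an _x_at or _s_at ending were left out. The calls of HBEGF and EGFR were each lost without any 1 of the 4 treated arrays, with adjusted p from 0.101 to 0.129 for HBEGF and from 0.079 to 0.204 for EGFR. BTC (adjusted p = 0.110, but called without either solvent array) and ERBB2 (adjusted p = 0.902) were not called.

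The other genes of the pathway were taken from fixed lists. Of the neuregulins and ERBB4, a list of 5 genes, NRG1, a ligand of ERBB3 and ERBB4, was past the level filter in both lines. Its signal in HuccT1 was 380, 637 and 382, higher by 0.75 (log2) with the low dose alone. The KKU-100 signals were 443, 477 and 455. NRG3, NRG4 and ERBB4 were below the filter in both lines, with ERBB4 signals of 11.8 to 14.3.

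Of 9 genes of ligand shedding and transport, which include the proteases ADAM10 and ADAM17 that release the ligands, 8 were past the filter in each line. None fell by 1.5-fold in any of the 4 comparisons, where 3.32% to 7.32% of all genes did. The rhomboid protease gene RHBDL2 was higher with the low dose in HuccT1 (109 to 174, log2 change 0.67) and within 1.5-fold in KKU-100 (0.44). For the list, the median log2 change was 0.17 and 0.14 in HuccT1, and 0.19 and 0.04 for KKU-100. ADAM10 was lower with the high dose (-0.51 in HuccT1 and -0.41 in KKU-100) and higher with the low dose (0.25 and 0.10). With the high dose ADAM17 was 0.29 and 0.03 in the same order.

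Of 10 genes that restrain the receptors, ERRFI1, an inhibitor that binds the EGFR kinase domain, fell in 3 of 4 comparisons. Its signal in HuccT1 was 1675, 1016 and 1581, so that the high dose array was close to solvent. Its KKU-100 signals were 2015, 1058 and 1010.1, lower under either dose. RNF41, a ubiquitin ligase that lowers ERBB3, was higher with the high dose in both lines, 138 against 252 in HuccT1 and 138 against 245 in KKU-100. LRIG2 was lower with the low dose in KKU-100 (376 to 251), and the ubiquitin ligase gene CBLB was higher with the high dose in HuccT1 (0.70). In HuccT1 the list thus had 1 of 9 genes past the filter lower with the low dose (3.32% of all genes) and 2 higher with the high one (8.23%). In KKU-100 it had 2 of 10 lower with the low dose (7.32% of all genes), and 1 lower (4.86%) and 1 higher (9.44%) with the high one.

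Of 17 adaptors and effectors, 16 were measured. GAB2, a docking protein that joins receptors to PI3 kinase, was higher than solvent in all 4 treated arrays. Its signal was 248, 493 and 331 in HuccT1, while KKU-100 had 105, 252 and 195, log2 changes of 0.99, 0.41, 1.26 and 0.89. The HuccT1 high dose array did not reach 1.5-fold. GRB7, an adaptor that binds ERBB2, was higher with the low dose in HuccT1 (0.65). PLCG1, a phospholipase C gamma, was higher with the low dose in KKU-100 (0.81). GRB7, PLCG1 and LRIG2 were named after their values were seen, as genes past 1.5-fold. PIK3R1, the regulatory subunit of PI3 kinase, was higher in HuccT1 (1.22) and lower in KKU-100 (-0.96) with the high dose. SOS2, an exchange factor for RAS, was lower under either dose in KKU-100 (-0.83 and -0.67). In limma the adjusted p over both lines was 0.314 and 0.221 for GAB2, 0.398 and 0.355 for ERRFI1, and 0.145 for RNF41 with the high dose, so none of these 3 passed.

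**Figure D4:**
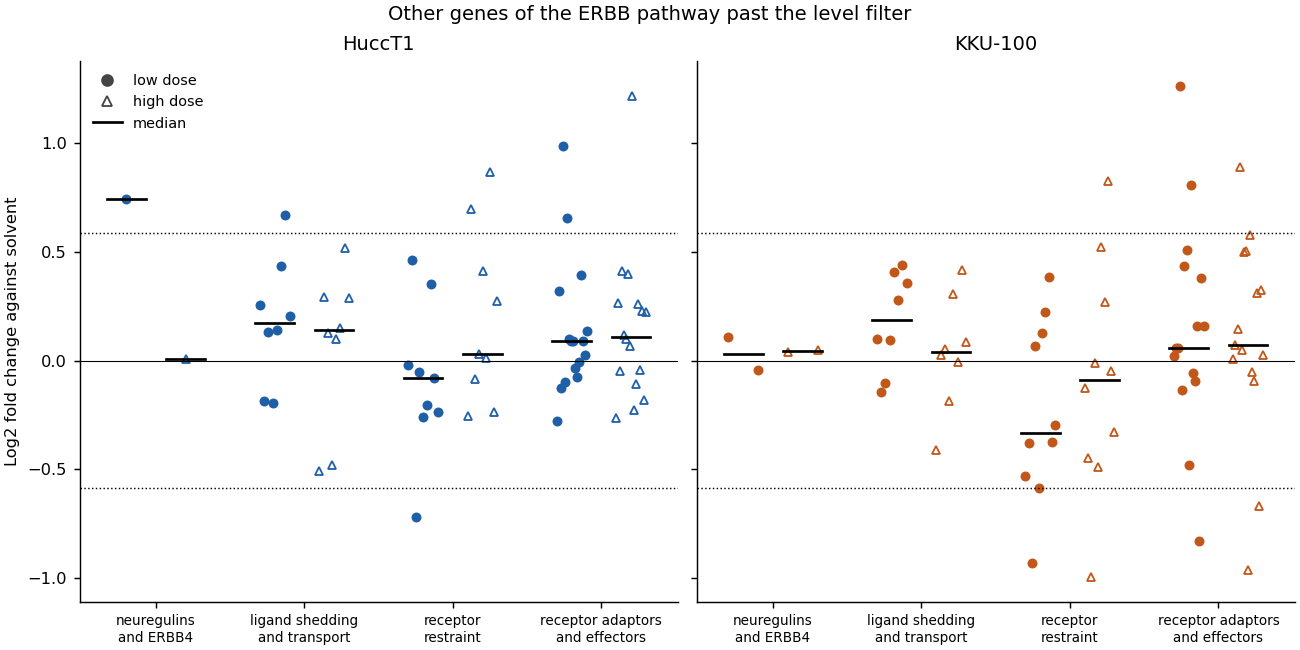
Log2 change against solvent for the genes of the 4 pathway lists past the level filter, by line and dose; each point is 1 gene, the bars mark list medians and the dotted lines stand at 1.5-fold. The list medians lie inside 1.5-fold, except that of the neuregulin list in HuccT1 with the low dose, which is NRG1 alone (0.75), and 1 gene of ligand shedding, RHBDL2, lies past it.

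Genes with the pattern most like a ligand were named by Pearson's r over the 6 arrays, each line centred, among 12032 genes. This is a description over 6 points that share their solvent arrays. For HBEGF these were RPS16P5 (0.999), TRAPPC10 (0.998) and AMMECR1 (0.997), and for EREG RRN3 (0.999), WARS2-AS1 (0.998) and PLAGL2 (0.994). The r between the ligands was 0.964 for HBEGF and EREG, 0.954 for HBEGF and TGFA and 0.944 for EREG and TGFA. These ligands were grouped because each fell with both doses in both lines, so high r values between them restate that fall. At rank 92 and 130 in the list for HBEGF, EREG and TGFA had many other genes before them. ERBB3 ran opposite to HBEGF, with r of -0.957, at rank 11837 of 12032, so other genes ran more opposite still. By the brightest probe set ERBB3 moved mostly in KKU-100 (log2 changes of 1.71 and 1.21, against 0.55 and 0.09 in HuccT1).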

How the data were processed

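Total RNA of 6 samples was hybridised to 1-colour Affymetrix arrays. The authors made the deposited signal intensity values with MAS5, per the labels; the version is not given in the sources used here. The intensities were put on the log2 scale with no further scaling. Of the probe sets, 62 controls were left out and 54613 used: 41091 had 1 gene in the platform annotation, 1801 several and 11721 none, and only the first kind was named. A gene was its probe set with the highest mean log2 signal. Genes were counted where the mean log2 signal reached the 50th percentile (12789 in HuccT1, 12694 in KKU-100, 12833 over all arrays). Comparisons within a line used the 1.5-fold cutoff of the study, with no test. limma 3.58.1 in R 4.3.3 (lmFit, eBayes with trend, 2 residual degrees of freedom) was fitted over the 6 arrays with Benjamini-Hochberg adjustment and a threshold of 0.05, after it was tested on simulated data. The t-test on the same values, other scalings, filters, cutoffs and probe set rules, and leaving out each array, were alternatives. Promoters came from RefSeq (9 of 10 members had one). All members were named. A rule took up to 3 genes a line from each pathway list, past the level filter and changed the same way by both doses. These were ranked by size of change at the high dose. Of the genes it gave, FRMD8, TIMP3, RHBDF1, CBL, LRIG3 and NCK1 were not described. ADAM10, ADAM17, GRB7, PLCG1, LRIG2 and the list genes below the filter were named outside this rule. Members, lists and motifs were chosen with earlier results of these data known. The number of arrays limits the precision.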

Additional observations from a re-analysis of the deposited data

Results flagged for a closer look

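Among the members and the pathway genes named in the text, 6 had both treated arrays of HuccT1 on one side of its solvent array and both of KKU-100 on the other. The share of all genes with this pattern was not worked out, and the pathway genes were named partly for their changes. The 6 are therefore a description. The difference in response was tested with limma's interaction term (KKU-100 minus HuccT1), and none passed after adjustment over all genes. For EGF it was -0.92 (adjusted p = 0.607), with log2 changes of 0.54 and 1.05 in HuccT1, where EGF was below the level filter, and -0.21 and -0.04 in KKU-100. For CBLB, a ubiquitin ligase of activated receptors, it was -0.99 (adjusted p = 0.601), from 0.46 and 0.70 against -0.38 and -0.45. For PIK3R1 it was -1.38 (adjusted p = 0.682), from 0.09 and 1.22 against -0.48 and -0.96. For SOS2 it was -0.91 (adjusted p = 0.601), from 0.09 and 0.23 against -0.83 and -0.67. For GRB7, below the level filter in KKU-100, it was -0.60 (adjusted p = 0.723), from 0.65 and 0.10 against -0.16 and -0.28. For PLCG1, the only one of these with the higher response in KKU-100, it was 0.82 (adjusted p = 0.607), from -0.03 and -0.23 against 0.81 and 0.58.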

How the results depend on the processing

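No called value changed direction under the alternatives that could be run. Apart from leaving out an array, 94 counts of members stayed within 1.5 times the reported count and 8 did not. With a 2-fold cutoff, the members lower (3 in each comparison at 1.5-fold) became 1 in HuccT1 under either dose, with 2 in KKU-100 with the low dose and 1 with the high dose. Quantile normalization made 1 member higher in HuccT1 with the low dose (ERBB3), where there had been 0. Without a level filter, 1 member was higher in HuccT1 with the high dose (EGF). Taking the median over a gene's probe sets left 0 members higher in KKU-100 under either dose, with 2 lower there with the low dose and 1 with the high dose, and 2 lower in HuccT1 with the high dose (HBEGF lost), since dim and flat probe sets then count. With a level filter at the 60th percentile, 5 members in place of 6 were called between the lines, EGF included in the latter. By the median over probe sets ERBB3 in KKU-100 was 0.47 and 0.29, and TGFA -0.21 and -0.09. The difference of TGFA between the lines was by that median -0.91, still called.

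Leaving out each array in turn, limma called 0 to 4 members for the low dose, 0 to 2 for the high dose and 4 to 7 between the lines, EGF included. Over all genes these calls were 0 to 1280, 0 to 629 and 4830 to 7486 of 12833. For the difference in response it called 0 throughout, and that model could not be fitted without a solvent array. The highest counts at the doses came without the HuccT1 solvent array. With 1 array per condition, the spread between cultures of a line under 1 treatment was not measured.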

Other observations

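At the high dose the 3 ligands that fell lay between the low dose and the solvent array in both lines. The log2 difference of high minus low dose was 0.34 for HBEGF, 0.27 for EREG and 0.27 for TGFA in HuccT1, and 0.77, 0.78 and 0.24 in the same order in KKU-100. Among all genes lower by 1.5-fold at the low dose, 49.6% of 425 in HuccT1 and 76.9% of 929 in KKU-100 lay between in the same way. The order of the doses was not tested.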
